A study of Mus musculus with 4 samples.

Results

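The transcription factors Bcl6, Mef2b, Mef2c, Foxo1, Foxp1, Bach2, Pax5, Pou2af1, Spib and Tcf3 were followed through splenic germinal center (GC) B cells. They were chosen by name as regulators of the GC response and make up 10 of the 31053 genes in the count matrices. Mice received sheep red blood cells (SRBC), a T cell-dependent antigen, and on day 10 their B220+IgD- spleen cells were sorted and profiled by droplet single-cell RNA-seq of transcript 3′ ends. All mice were young adult females on a C57BL/6J background and carried the Cγ1-cre allele (Cg1Cre+/-), which makes Cre recombinase in B cells that transcribe the Cγ1 locus. The WT mouse had this allele alone, the C mouse was also Crebbp fl/+, the K mouse Kmt2d fl/+, and the CK mouse carried both floxed alleles. Crebbp encodes a histone acetyltransferase and Kmt2d a histone methyltransferase, both of which act on enhancers. Each genotype was 1 mouse and 1 library, so no difference between genotypes has a replicate check, no test was run, and genotype and mouse cannot be told apart. The recombined allele was not checked here, since a 3′ count does not see the deletion and 1 intact copy remains in each mutant.

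In the dark zone of the GC, B cells divide and mutate their immunoglobulin genes as centroblasts (CB). In the light zone they stop dividing, test their receptor against antigen and seek T cell help as centrocytes (CC), from where they return to the dark zone or leave as memory or plasma cells. BCL6 is a transcriptional repressor without which no GC forms, MEF2B helps to switch its gene on, and FOXO1 and TCF3 maintain the dark zone program. PAX5 holds B cell identity, while BACH2 delays plasma cell differentiation. OCA-B, encoded by Pou2af1, is a coactivator that binds OCT1 and OCT2 on the octamer element of immunoglobulin promoters.

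The genes were placed by the Ensembl identifiers of the matrices on GRCm38. Bcl6 lies at chr16:23965052-23988852, minus strand, Mef2b at chr8:70139711-70167488, plus strand, and Mef2c at chr13:83504034-83667080, plus strand. The forkhead genes lie at chr3:52268336-52353221, plus strand (Foxo1) and chr6:98925338-99522721, minus strand (Foxp1). Bach2 and Pax5 share a chromosome, at chr4:32238804-32586108, plus strand and at chr4:44524757-44710487, minus strand. Pou2af1 is at chr9:51213708-51240080, plus strand, Spib at chr7:44525993-44532071, minus strand, and Tcf3 at chr10:80409514-80433647, minus strand. Mef2b overlaps Borcs8 and Foxp1 overlaps Gm20696 on the same strand, so reads from shared exons could have been split or dropped in counting. Antisense genes run through Bach2 (Bach2os), Pax5 (Gm12462) and Foxo1 (Gm20402), and how the counting used strand was not given in the sources used here.

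The 250 bases before each RefSeq transcription start (GRCm38.p6) were searched on both strands for letters bound by these factors themselves. All 10 genes had an entry, with 15 windows in all, and 32851 mouse windows of the same length gave the background. Letters of the BCL6 site, TTCNNNGAA, stood in 4 of the 15 windows and in 7.02% of all windows. The octamer, ATGCAAAT or ATTTGCAT in reverse, stood in 1 of the 15 against 1.6%, and the E-box CAGGTG bound by TCF3 in 1 of the 15 against 17.2%. TGANTCA, the core of the MAF recognition element bound by BACH2, stood in 1 of the 15 against 6.75%. The forkhead letters GTAAACA, the MEF2 motif and the ETS letters GAGGAAGT were in none of the 15, against 3.17%, 3.2% and 2.44% of all windows. A match describes letters in a window and is not a bound site. The 4 windows with BCL6 letters were those of both Bcl6 starts, of Bach2 and of the upstream start of Mef2c. Shown here, because they carry the letters of BCL6 or of the octamer that OCA-B works on, are the window before the Bcl6 gene (chr16:23988853-23989102, minus strand), that of a second Bcl6 start inside the gene but outside its exons (chr16:23981284-23981533, minus strand), that of Mef2b inside the gene but outside its exons (chr8:70152511-70152760, plus strand), and that of Bach2, likewise intronic (chr4:32417185-32417434, plus strand). The bases that follow the internal Bcl6 start and the Mef2b start were not found in an Ensembl-based transcript of the gene. These starts come from RefSeq. Each window reads 5′ to 3′ on the gene's strand, with the matched letters in capitals.
Bcl6 upstream start: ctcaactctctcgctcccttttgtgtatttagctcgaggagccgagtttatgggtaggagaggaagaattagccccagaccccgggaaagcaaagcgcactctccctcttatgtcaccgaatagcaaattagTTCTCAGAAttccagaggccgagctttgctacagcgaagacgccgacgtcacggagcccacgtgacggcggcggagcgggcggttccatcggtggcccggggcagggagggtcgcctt
Bcl6 internal start: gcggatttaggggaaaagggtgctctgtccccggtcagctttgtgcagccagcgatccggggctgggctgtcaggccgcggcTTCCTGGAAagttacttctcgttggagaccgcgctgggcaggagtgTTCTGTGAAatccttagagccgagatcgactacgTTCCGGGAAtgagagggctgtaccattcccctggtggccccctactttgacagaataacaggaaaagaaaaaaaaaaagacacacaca
Mef2b: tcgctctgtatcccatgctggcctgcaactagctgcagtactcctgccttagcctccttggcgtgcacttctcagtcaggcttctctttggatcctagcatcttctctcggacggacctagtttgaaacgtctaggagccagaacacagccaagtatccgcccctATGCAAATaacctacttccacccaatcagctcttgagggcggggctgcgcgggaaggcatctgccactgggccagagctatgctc
Bach2: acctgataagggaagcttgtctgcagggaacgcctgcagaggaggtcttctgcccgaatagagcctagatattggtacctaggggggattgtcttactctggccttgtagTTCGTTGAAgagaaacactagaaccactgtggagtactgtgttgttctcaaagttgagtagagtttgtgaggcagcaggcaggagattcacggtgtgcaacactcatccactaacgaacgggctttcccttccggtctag

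The upstream Bcl6 window held 1 copy of TTCNNNGAA and the internal one held 3. The Bach2 window held 1 copy, and the Mef2b window held 1 octamer. The Mef2c window, at chr13:83503784-83504033, plus strand, held 1 copy and is not printed, since Bcl6 and Bach2 already show these letters.

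The libraries held 8071 to 12852 barcodes and 33270825 to 39803865 unique molecular identifiers (UMIs, each a captured transcript). The deposited annotation names 1227, 2041, 2583 and 3953 GC B cells in WT, C, K and CK, the order used throughout for 4 values. Levels are UMIs summed over the cells of a library and class, per 1000000 UMIs of those cells (CPM), and their 95% intervals cover counting error only. Counts of 3′ ends have no length term, and levels are compared here between cells rather than between genes. The K library stood apart from the others: over all genes measured in annotated cells the median log2 ratio to WT was −0.16, against 0.01 in C and −0.03 in CK, and in the T-like cells sorted along, in which Cre is not meant to act, it was −0.19, −0.02 and −0.01. Results across subtypes were recomputed without K. The ratio of K to WT is printed beside that of T-like cells for Bcl6 and Mef2c only. For all 10 factors, the plot of log2 ratios to WT shows annotated and T-like cells together. No T-like ratio is given for genes outside the 10 factors, so the part of the library offset in their K values was not tested. Of 38866 barcode sequences, 143 occurred in more than 1 library. Crebbp itself stood at 68.4, 42.99, 38.6 and 37.96 CPM in annotated cells and Kmt2d at 18.5, 21.3, 9.85 and 15.1 CPM, so that K, which has intact Crebbp, was as low in Crebbp as C.

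Before the factors were read, the labels were checked on markers that contain none of them. The 8 GC markers, among them Rgs13, a GC regulator of G protein signals, summed to 2079, 2039, 1869 and 2139 CPM in annotated cells and to 122, 111, 110.1 and 144 CPM in T-like cells, and all 8 were detected. Cells annotated as prememory did not carry them: their GC marker sum was 142, 173, 203 and 184 CPM, near the 148, 144, 187 and 207 CPM of unannotated follicular-like B cells. Their follicular markers, such as Fcer2a and Klf2, summed to 2728, 2307, 2751 and 2278 CPM. All annotated cells together had 822, 748, 579 and 481 CPM of these, and follicular-like cells 4378, 4459, 4233 and 3941 CPM. The name prememory is therefore used here only as the deposited label. Recycling cells numbered 8 to 49 a library and are left for the end of the text.

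Bcl6 RNA was alike in level across the cycle of CB, cells in transition from CB to CC, and CC, and nearly absent from cells labelled prememory. It stood at 69.6, 57.7, 36.4 and 48.4 CPM in CB, at 68.1, 63.1, 38.8 and 53.9 CPM in transitioning cells and at 62.9, 63.2, 42.3 and 55.7 CPM in CC. In every one of these subtypes K was the lowest library, and the ranges of the subtypes overlapped. Early CB had 63.8, 31.8, 26.2 and 34.97 CPM, the WT value resting on 15 UMIs in 38 cells with an interval of 35.7 to 105 CPM. In prememory cells only 2, 7, 2 and 3 UMIs were counted, or 3.79, 10.6, 6.76 and 11.3 CPM. WT had a log2 ratio of prememory over CC of −4.05 (−7.12 to −2.17). The ratio in C was −2.57 (−3.91 to −1.48), that in K −2.65 (−5.71 to −0.76) and that in CK −2.31 (−4.60 to −0.73).

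Outside the annotation, Bcl6 in follicular-like and marginal-zone-like B cells was near or below its level in T-like cells. T-like cells had 14.9, 12.04, 9.83 and 16.3 CPM. Follicular helper T cells use Bcl6 themselves, so T-like cells are no clean blank for this gene. Follicular-like B cells had 16.1, 8.06, 10.1 and 11.8 CPM, marginal-zone-like B cells 13.03, 8.85, 2.53 and 5.20 CPM and plasma-like cells 3, 1, 0 and 1 UMIs in all. Cells with a GC profile but 2500 or more genes, which the deposited annotation does not hold, had 53.5, 43.8, 38.3 and 44.3 CPM, with K the lowest here too. After each cell was thinned to 2000 UMIs, 10.9%, 10.4%, 7.86% and 9.16% of annotated cells held a Bcl6 UMI, against 2.64%, 1.94%, 1.93% and 3.16% of T-like cells. Median depths before thinning were 4931, 4053, 4759 and 3653 UMIs in annotated cells and 3215.5, 2308.5, 2701.5 and 1918 in T-like cells.

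Mef2b set GC B cells apart from follicular-like B cells by the largest median log2 ratio among the 10 genes. Its level was 410.5, 482, 480.1 and 504 CPM in CB, 542, 641, 559 and 591 CPM in transitioning cells and 563, 673, 569 and 673 CPM in CC. CB were the lowest of these in each library, with a log2 ratio of CC over CB of 0.25 to 0.48, and WT was the lowest library in CB, transitioning cells and CC. Early CB had 527, 678, 598 and 623 CPM. In prememory cells the level was 17.04, 25.9, 33.8 and 45.04 CPM, close to the 19.7, 19.5, 23.6 and 27.9 CPM of T-like cells. The log2 ratio of prememory over CC was −5.05 (−6.18 to −4.12) in WT and −3.90 (−4.86 to −3.09) in CK, the widest and narrowest of the 4 libraries.

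Follicular-like B cells had 18.7, 22.9, 30.9 and 43.5 CPM of Mef2b, and their log2 ratio to annotated GC B cells was −4.69 to −3.72. In cells thinned to 2000 UMIs, 54.9%, 61.1%, 59.96% and 63.2% of annotated cells held a UMI. That share was 1.95% to 5.50% in follicular-like, 1.79% to 5.85% in prememory and 3.55% to 4.26% in T-like cells, which should lack it, and these ranges overlapped. Shares this near to those of T-like cells are not read as expression. In CK the unthinned levels of prememory and follicular-like cells, 45.04 and 43.5 CPM, were above the 27.9 CPM of its T-like cells. The thinned follicular-like set kept 790, 359, 200 and 70 cells of 1385, 2511, 1187 and 1759. Plasma-like cells lay between, at 42.6, 103, 75.9 and 55.3 CPM, and GC B-like cells above the gene limit were at 458, 505, 482 and 509 CPM.

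Mef2c, the paralog that transmits B cell receptor signals, was a pan-B cell transcript and followed another course. It was higher in CC than in CB in every library, at 1069, 1237, 767 and 1123 CPM against 649.5, 859, 585 and 884 CPM, with log2 ratios of 0.72, 0.53, 0.39 and 0.35. Transitioning cells had 763, 849.5, 563 and 789 CPM, early CB 922, 1035, 648 and 840.3 CPM and prememory cells 922, 944, 737 and 814 CPM. Follicular-like cells, at 1045, 1227, 751 and 1096 CPM, overlapped CC in level, and K was the lowest library in each of these classes. T-like cells had 27.96, 38.4, 12.02 and 36.2 CPM, again with the lowest value in K. Marginal-zone-like cells had 466 to 819 CPM and plasma-like cells 229.8 to 461 CPM.

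Foxo1, which in the GC is required for the dark zone, was not higher in CB than in CC at the RNA level. Its level was 95.6, 88.99, 81.3 and 84.9 CPM in CB, 116, 100.03, 99.3 and 108 CPM in transitioning cells and 104, 105, 86.7 and 94.1 CPM in CC. CC overlapped both in range, with log2 ratios of CC over CB from 0.09 to 0.24. Transitioning cells lay above CB in each library without overlap, at log2 ratios of 0.17 to 0.35. Prememory cells had 75.7, 59.3, 60.8 and 60.1 CPM. Follicular-like cells, at 141, 122, 125 and 128 CPM, lay above CC in each library, and marginal-zone-like cells had 60.5, 59.9, 50.7 and 54.6 CPM. FOXO1 also acts in resting T cells, and T-like cells had 90.7, 88.8, 74.3 and 86.7 CPM.

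Foxp1, a forkhead factor of naive B cells that is normally lowered on GC entry, had its highest annotated level in prememory cells and, by the mean over libraries, its lowest in early CB. In K and CK the few recycling cells were lower still. It stood at 191, 164, 239.5 and 255 CPM in early CB, at 320.1, 255, 255 and 261 CPM in CB and at 404, 345, 339 and 413 CPM in CC. Prememory cells had 729, 572, 510.2 and 724 CPM, above all other annotated subtypes in each library and below the 952, 886, 803 and 893 CPM of follicular-like cells. The log2 ratio of follicular-like over annotated GC B cells was 1.22 to 1.48, and that of prememory over CC was 0.59 to 0.85. Marginal-zone-like cells had 735, 662, 527 and 744 CPM and plasma-like cells 83.7, 71.2, 81.3 and 94.00 CPM. The GC B-like cells above the gene limit had 219, 171, 189 and 196 CPM, at log2 ratios of −0.90 to −0.72 to annotated cells, and Foxp1 was the 1 factor past 1.5-fold in that comparison in all libraries (6.89% of all genes passed). T-like cells use Foxp1 as well and had 335, 368, 291 and 315 CPM.

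Pax5, the factor of B cell commitment, was lower in CB than in transitioning, CC and prememory cells of each library. CB had 129.9, 129, 113 and 147 CPM, CC 174, 182, 137 and 182 CPM and prememory cells 216, 161, 132 and 244 CPM. Transitioning cells had 230.4, 153, 151 and 175 CPM, with WT above the other libraries. In follicular-like cells it reached 307, 261, 222 and 246 CPM, at log2 ratios of 0.66, 0.79, 0.73 and 0.56 to annotated cells. Plasma-like cells, which switch Pax5 off, had 10.3, 7.91, 2.17 and 4.15 CPM, at or below the 8.49, 9.99, 8.52 and 6.53 CPM of T-like cells in C, K and CK.

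Bach2, a repressor of the plasma cell gene Prdm1, stood at like levels in follicular-like cells, in the subtypes from CB to CC and in GC B-like cells above the gene limit (152 to 183 CPM). It was lower in prememory and marginal-zone-like cells. It had 148, 212, 153 and 219 CPM in CB, 266, 202, 165 and 190.4 CPM in transitioning cells and 218, 190.1, 151 and 202 CPM in CC, with overlapping ranges. Prememory cells had 70.05, 62.4, 47.3 and 71.3 CPM, and their log2 ratio to CC was −1.67 to −1.50. Their log2 ratio to follicular-like cells, which had 181, 173, 176 and 171 CPM, was −1.89 to −1.26. Marginal-zone-like cells had 33.5, 32.7, 20.3 and 18.2 CPM, within or below the 36.4, 39.98, 26.9 and 32.7 CPM of T-like cells, and a log2 ratio to follicular-like cells of −3.23 to −2.40. Plasma-like cells had 9, 1, 12 and 3 UMIs in all.

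Tcf3, which encodes the E proteins E12 and E47 and drives dark zone genes, was lower in CC than in CB in each library. It stood at 257, 246, 209.8 and 213 CPM in CB, at 188, 217, 186 and 185 CPM in transitioning cells and at 136, 141, 95.9 and 121 CPM in CC. The ranges of CB and CC did not overlap, and the log2 ratios were −0.92, −0.81, −1.13 and −0.81. Prememory cells, at 222, 187, 203 and 165 CPM, were again above CC, and follicular-like cells had 266, 273, 267 and 275 CPM. Marginal-zone-like cells had 119, 119.8, 88.7 and 107 CPM and T-like cells 63.99, 63.4, 63.4 and 65.5 CPM.

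Pou2af1 had the clearest order along the GC cycle. CB had 554, 467, 579 and 544 CPM, transitioning cells 481, 404, 525 and 454 CPM, CC 279, 248, 290.4 and 265 CPM and prememory cells 163, 103, 162 and 188 CPM, and the order was the same in each library. CB and transitioning cells overlapped in range, whereas CC lay below both and above prememory cells. The log2 ratios of CC over CB were −0.99, −0.91, −0.99 and −1.04. Follicular-like cells, at 282, 226, 342 and 261 CPM, were near CC. Plasma-like cells, at 270.1, 239, 181 and 279 CPM, kept more of this gene, relative to GC B cells, than of the other factors by the median over libraries, at log2 ratios of −1.42 to −0.57.

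Spib, an ETS factor of B cells and plasmacytoid dendritic cells, differed between the libraries in the same way in CB, transitioning cells and CC. In CB it stood at 184, 117, 169 and 125 CPM and in CC at 169, 146, 193 and 146 CPM. Transitioning cells had 174, 139.9, 185 and 142 CPM. The values of WT and K lay above those of C and CK in each of these 3 subtypes. In CC the ratios of C and CK to WT, given below, were smaller, with counting intervals that reach equal levels. Follicular-like cells had 389.7, 306, 434 and 352 CPM, at log2 ratios of 1.16 to 1.40 to annotated cells, and marginal-zone-like cells had 112, 118, 122 and 96.2 CPM. T-like cells had 7.66, 11.1, 8.96 and 6.53 CPM.

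**Figure D1:**
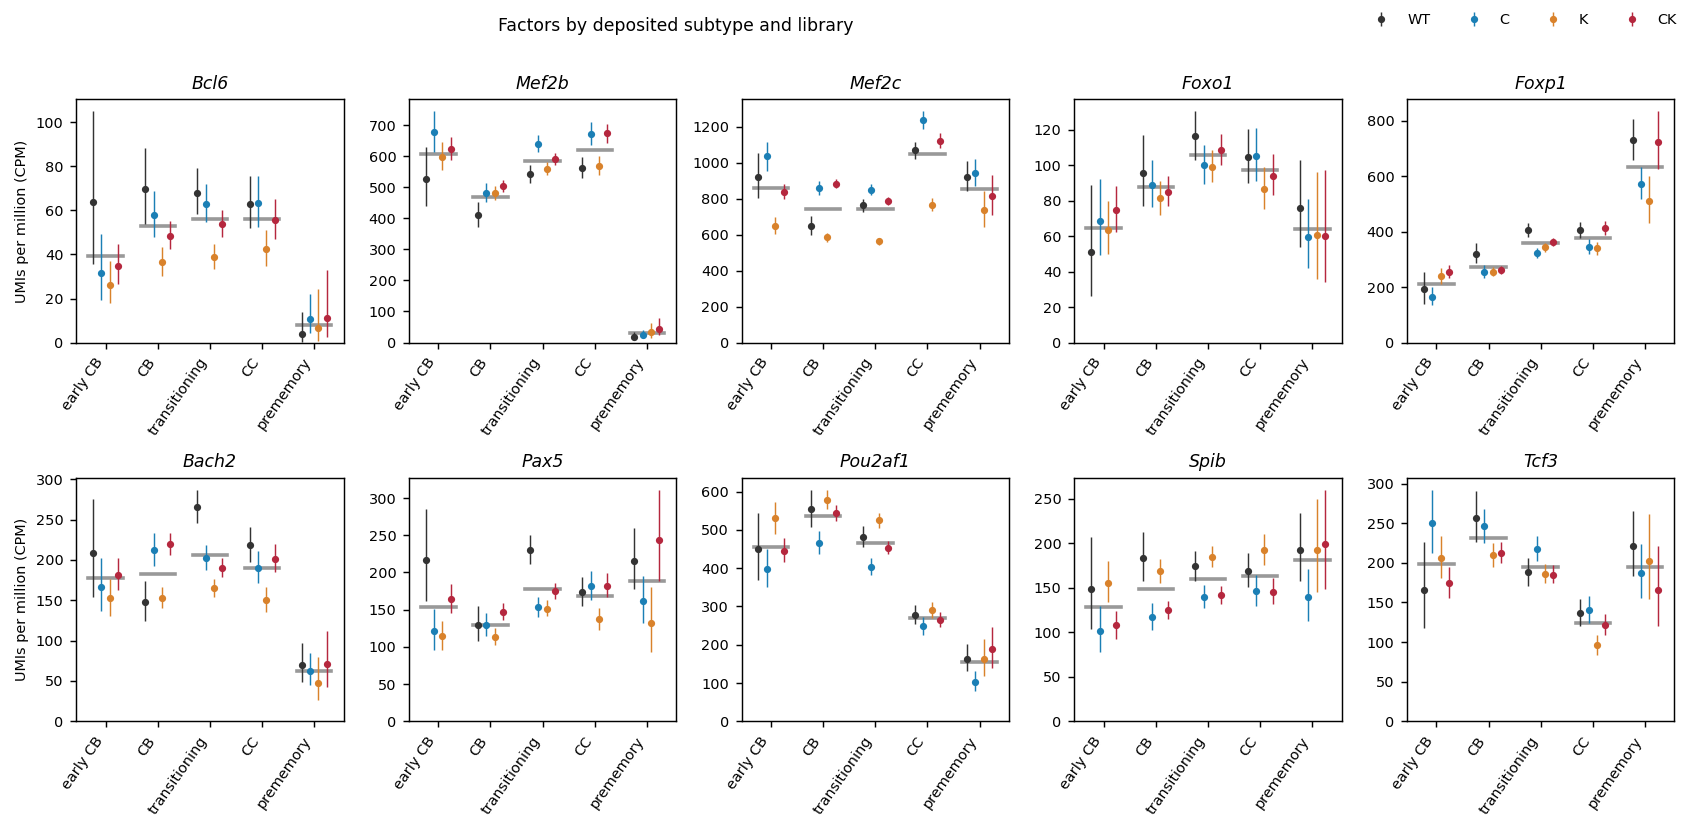
CPM (vertical axis, linear from 0) of each of the 10 genes in 5 deposited subtypes, with 1 point per library, its exact 95% Poisson interval as a bar and the mean of the 4 libraries as a grey line. Mef2b and Bcl6 drop to near 0 in prememory cells, where Foxp1 is highest at 510.2 to 729 CPM, and Pou2af1 steps down from CB to CC to prememory cells.

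Counted against 1.5-fold in the same direction in all 4 libraries, Pou2af1 and Tcf3 were lower in CC than in CB, which is 2 of 10 factors beside 9.11% of all genes measured, and none was higher. From CB to transitioning cells no factor passed, beside 5.31% of genes, and from transitioning cells to CC only Pou2af1 did, beside 6.91%. Early CB and CB differed past this fold in none of the 10, beside 6.18%. From CC to prememory cells 4 of 10 passed, Bcl6, Mef2b and Bach2 lower (6.93% of genes) and Foxp1 higher (7.90% of genes). Without K the same 2 factors counted for CC over CB. The subtypes were named from the RNA of the same cells, so these counts describe the labels and test nothing.

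The deposited pseudotime, an order of cells inferred from their RNA from CB to prememory cells, gave the same course without subtype borders. Each cell was placed by the share of WT cells before it, and the axis was divided into 10 bins of equal numbers of WT cells. Bin 1 held 59.1% CB and 26.8% early CB, and bin 10 held 57.6% CC and 40.6% prememory cells. Foxp1 had 214, 203, 221 and 240.2 CPM in bin 1 and 725, 579, 511 and 595 CPM in bin 10, while Pou2af1 had 568, 458, 603 and 526 CPM and 176, 150.5, 224 and 218 CPM. In each library bin 10 was the highest of all bins for Foxp1 and the lowest for Pou2af1.

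Mef2b stayed near its highest level up to bin 8, where the mean of the libraries was 592 CPM. In bin 10 it was 132, 223, 285 and 429 CPM, with WT lowest and CK highest. Cells labelled prememory made up 71.5%, 61.3%, 32.7% and 21.25% of bin 10 in the same order, and the part of that share in the Mef2b values and in those of the other factors in this bin was not tested. Bcl6 was highest in bin 6 by the mean over libraries, 66.6 CPM, with 32.8 CPM in K and 90.6 CPM in C. K was highest in bin 9, at 52.2 CPM, and CK in bin 5, at 76.3 CPM. In bin 10 Bcl6 had 28.4, 34.1, 20.5 and 37.2 CPM. Tcf3 was highest in bin 1 at a mean of 225 CPM and lowest in bin 9 at 141 CPM. Mef2c, Pax5 and Spib had their highest means in bin 10, and Foxo1 and Bach2 in bin 8.

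Between bins 9 and 10 and bins 1 and 2, 2 of 10 factors passed 1.5-fold in all 4 libraries, beside 17.1% of all genes. Foxp1 was higher, with log2 ratios of 1.22, 1.15, 0.93 and 1.17, and Pou2af1 was lower, with −1.25, −1.14, −1.02 and −0.90. The same 2 counted without K. Tcf3, past the fold for CC over CB, was short of it here, at −0.92 to −0.26. Mef2b, higher in CC than in CB, was lower at this end of the axis, at −0.82 to −0.10.

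**Figure D2:**
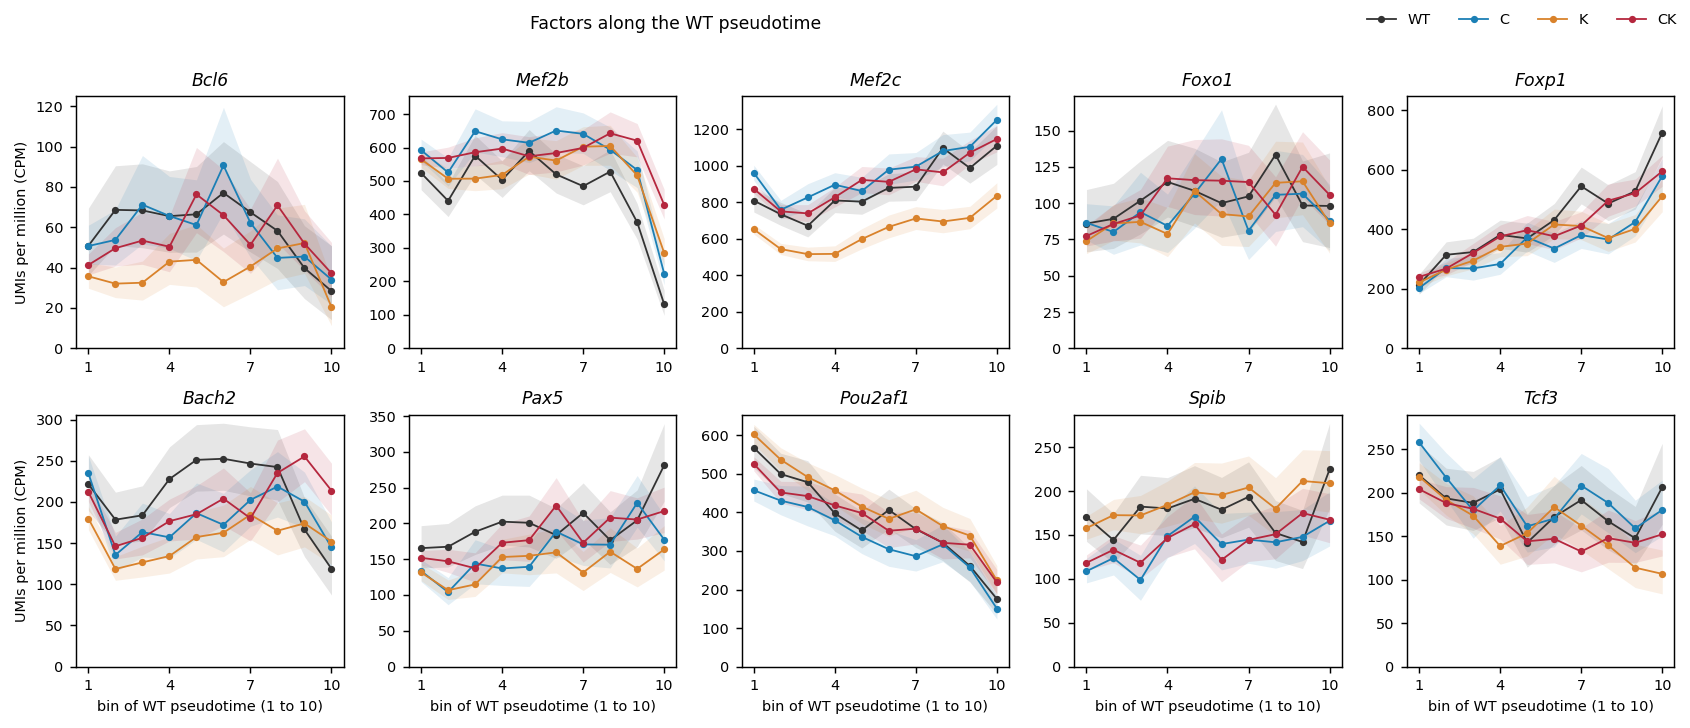
CPM (vertical axis, linear from 0) of each gene by bin of the WT pseudotime (horizontal axis, 1 the CB end), with 1 line per library and its exact 95% Poisson interval shaded. Foxp1 is lowest in bin 1 and highest in bin 10, Pou2af1 the reverse, Mef2b drops only in the last bins, and the K line of Mef2c lies below the others throughout.

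The matrices also held 11797 B cells outside the annotation, grouped here by clusters that were made without the 10 genes and without immunoglobulin and mitochondrial genes. Against annotated GC B cells, follicular-like cells passed 1.5-fold in all 4 libraries for 4 of 10 factors, beside 27.6% of all genes. Foxp1 and Spib were higher in follicular-like cells, and Bcl6 and Mef2b were lower. Pax5 was higher in each library and missed the fold in CK alone. These groups of cells differ in depth, with medians of 3653 to 4931 UMIs in annotated and 1180 to 2069 in follicular-like cells, and so the comparison was repeated on cells thinned to 2000 UMIs. There 5 factors passed in place of 4, with median log2 ratios of −1.84 for Bcl6, −4.36 for Mef2b, 1.15 for Foxp1 and 1.09 for Spib. Pax5 was the one added, higher in follicular-like cells with a median of 0.62.

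Marginal zone B cells are resting cells that answer blood-borne antigen quickly. In marginal-zone-like cells 4 of 10 factors were lower than in follicular-like cells past 1.5-fold in all libraries, beside 10.2% of genes, and none was higher. These were Bach2, with a median log2 ratio of −2.77 over the libraries, Spib with −1.82, Tcf3 with −1.28 and Foxo1 with −1.22. A B cell cluster led by the chemokine receptor gene Ccr6, with 81 to 195 cells a library, was lower than follicular-like cells in 6 of 10, beside 5.11% of genes. These were Foxo1, Foxp1, Bach2, Pou2af1, Spib and Tcf3, with medians from −0.81 for Foxp1 to −1.75 for Bach2. Prememory cells were lower than follicular-like cells in Bach2, Spib and Foxo1, with medians of −1.42, −1.07 and −1.04, which is 3 of 10 beside 8.36% of genes.

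Plasma-like cells, 44 to 71 a library, were lower than annotated GC B cells in 9 of 10 factors past 1.5-fold in all libraries. The background of this comparison was 54.5% of genes, so most genes measured moved with them. Pou2af1 was the exception, lower in each library with a median log2 ratio of −0.62 and short of the fold in WT. Mef2c kept 358, 461, 229.8 and 376 CPM in these cells, well above its 27.96, 38.4, 12.02 and 36.2 CPM in T-like cells.

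**Figure D3:**
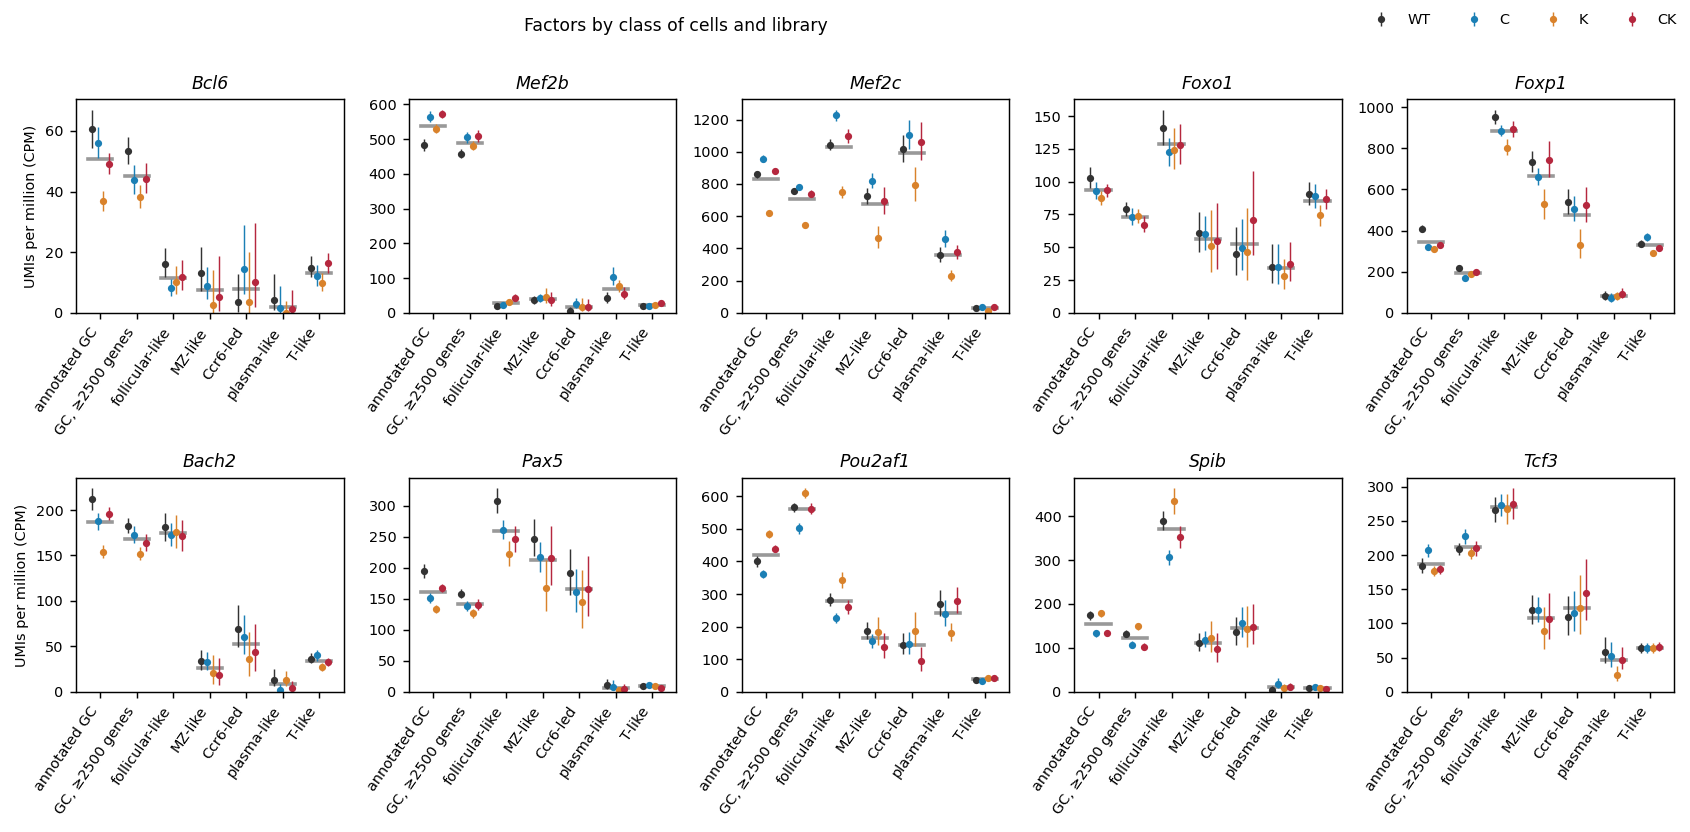
CPM (vertical axis, linear from 0) of each gene in annotated GC B cells, GC B-like cells above the gene limit, follicular-like, marginal-zone-like (MZ-like), Ccr6-led, plasma-like and T-like cells, with 1 point per library, exact 95% Poisson intervals as bars and the mean of the 4 libraries as a grey line. Bcl6 and Mef2b are high only in the annotated and the above-limit cells, and the T-like points show the level reached in cells of another lineage.

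Across the mutant libraries, few of the factors differed from WT by more than 1.5-fold. Over all annotated GC B cells none of 10 passed in C, beside 8.89% of genes, and none in CK, beside 17.7%. In K only Bcl6 passed, beside 23.6% of genes that were lower past this fold. The 3 comparisons share the WT library, so a departure of WT enters all of them. GC B-like cells above the gene limit, outside the annotation, numbered 839, 630, 788 and 645. That is 68.4%, 30.9%, 30.5% and 16.3% of the number annotated, so the limit left out unequal shares. With cells above the limit added by their nearest labels, CB numbered 657, 823, 1146 and 1489 in place of 183, 421, 645 and 1013. Counts with these cells added are given in the closing section.

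Bcl6 had log2 ratios to WT of −0.11 (−0.31 to 0.09), −0.72 (−0.92 to −0.52) and −0.30 (−0.48 to −0.12) in C, K and CK over annotated cells, from levels of 60.5, 56.1, 36.8 and 49.1 CPM. The K value was of like size outside the GC: it was −0.60 (−1.17 to −0.04) in T-like cells and −0.66 (−1.48 to 0.10) in follicular-like cells. In follicular-like cells C was lower still, at −0.996, and CK stood at −0.446, so WT was the highest library in that class. Relative to the median of all genes the K value was −0.55 in annotated cells, within 1.5-fold. In CB the K ratio was −0.94 (−1.37 to −0.49) and in CC −0.57 (−0.96 to −0.18).

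Mef2c in K was below WT in T-like cells, at −1.22 (−1.70 to −0.76), and in annotated cells, at −0.47 (−0.52 to −0.42). Its mean level over the libraries was 28.652 CPM in T-like cells against 830.29 CPM in annotated cells. Whether a ratio at so low a level measures an offset of the library was not tested. In CB, CK over K came to 0.59 (0.52 to 0.67) for Mef2c. It was the one factor past the fold there, beside 25.6% of genes. How far these K values belong to the library and how far to its genotype cannot be told apart.

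Mef2b was higher than WT in the mutant libraries by little, with log2 ratios of 0.23 (0.16 to 0.29), 0.14 (0.07 to 0.20) and 0.25 (0.19 to 0.31) in C, K and CK. Its ratio in follicular-like cells was 1.22 (0.73 to 1.72) in CK, from 18.7, 22.9, 30.9 and 43.5 CPM, past the fold beside 10.8% of genes. T-like cells of CK had a ratio of 0.51 (0.14 to 0.88), and the follicular-like levels lay near those of T-like cells, whose part in this ratio was not tested.

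Spib was lower in both libraries with a floxed Crebbp allele and not in K. Over annotated cells its levels were 174, 133, 179 and 134 CPM, and the log2 ratios to WT were −0.39 (−0.51 to −0.26) in C, −0.38 (−0.49 to −0.27) in CK and 0.04 (−0.07 to 0.14) in K. In CB the ratio was −0.65 (−0.93 to −0.36) in C, the 1 factor past the fold there beside 17.0% of genes, and −0.56 (−0.80 to −0.31) in CK. CC had smaller ratios, −0.22 (−0.45 to 0.02) and −0.22 (−0.44 to 0.00). In follicular-like cells the same libraries were lower too, with −0.35 (−0.47 to −0.23) in C and −0.15 (−0.28 to −0.01) in CK. In marginal-zone-like cells C had 0.08 (−0.26 to 0.43) and CK −0.22 (−0.79 to 0.33). Prememory cells of CK, with 53 UMIs, did not share it, at 0.04 (−0.46 to 0.54).

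Foxp1 was lower than WT in all 3 mutant libraries over annotated cells, by log2 ratios of −0.36 (−0.44 to −0.28), −0.39 (−0.47 to −0.32) and −0.30 (−0.37 to −0.23). In CC of CK it was not, at 0.03 (−0.10 to 0.17), and prememory cells made up 145 of 1227 annotated cells in WT against 225 of 2041, 93 of 2583 and 115 of 3953 in the mutants. Foxp1 is highest in prememory cells, and the part of that share in the value over all annotated cells was not tested. Pax5 was lower too, by −0.36 (−0.48 to −0.25), −0.54 (−0.65 to −0.43) and −0.22 (−0.32 to −0.12). In transitioning cells Pax5 was past the fold in C, at −0.59 (−0.76 to −0.41), and in K, at −0.61 (−0.76 to −0.45). In CC it was 0.06 (−0.16 to 0.29) in C and 0.07 (−0.14 to 0.28) in CK, with intervals that hold 0.

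Bach2 had opposite signs in neighbouring subtypes. In CB its log2 ratio to WT was 0.52 (0.25 to 0.81) in C and 0.57 (0.32 to 0.83) in CK. In transitioning cells it was −0.39 (−0.55 to −0.24) in C and −0.48 (−0.62 to −0.34) in CK, and K had −0.68 (−0.83 to −0.53). WT was thus the lowest library in CB and the highest in transitioning cells.

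Foxo1, Pou2af1 and Tcf3 stayed within 1.5-fold of WT in CB, transitioning cells and CC of all 3 mutants. For Foxo1 the ratios over annotated cells were −0.15 (−0.30 to 0.01), −0.24 (−0.38 to −0.09) and −0.14 (−0.28 to 0.00). Pou2af1 was lower in C, at −0.15 (−0.23 to −0.07), and higher in K and CK, at 0.27 (0.20 to 0.34) and 0.13 (0.07 to 0.20). Tcf3 had 0.16 (0.06 to 0.27), −0.07 (−0.17 to 0.04) and −0.04 (−0.14 to 0.06), and in CC of K it reached −0.51 (−0.77 to −0.24).

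By subtype, CC had no factor past the fold in any mutant, beside 11.5% of genes in C, 27.2% in K and 12.8% in CK. CB had Spib in C, Bcl6 in K (beside 30.7%) and none in CK (beside 23.5%). Transitioning cells had Pax5 in C (beside 10.4%), Bcl6, Bach2 and Pax5 in K (beside 27.9%) and none in CK (beside 15.5%). In GC B-like cells above the gene limit no factor passed in any mutant, beside 7.08%, 24.1% and 11.0% of genes. In T-like cells Bcl6 and Mef2c passed in K, beside 25.8%. In follicular-like cells Bcl6 passed in C (beside 8.39%), Bcl6 and Mef2b in K (beside 25.4%) and Mef2b in CK (beside 10.8%). The 3 of 10 factors in transitioning cells of K and the 1 of 10 in follicular-like cells of C were near their backgrounds. All other shares in this paragraph lay below theirs.

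Early CB and prememory cells, with few cells in each library, are given separately. In early CB, Bcl6 was lower than WT past the fold in all 3 mutants, at −1.003 (−2.04 to 0.07), −1.28 (−2.21 to −0.29) and −0.87 (−1.70 to 0.06), against a WT value that rests on 15 UMIs. Pax5 was lower there in C and K, at −0.84 (−1.37 to −0.30) and −0.92 (−1.40 to −0.43), and Tcf3 was higher in C, at 0.59 (0.08 to 1.14). That is 3 of 10 factors in C beside 23.1% of genes, 2 in K beside 35.2% and 1 in CK beside 29.8%. In prememory cells 2 of 9 measured factors passed in C, Pou2af1 lower and Mef2b higher, beside 17.0% of genes. Pax5 passed in K, 1 of 8 beside 32.8%, and Mef2b in CK, 1 of 9 beside 22.7%. In both subtypes the shares in K and CK lay below their backgrounds, and those in C were near or slightly above theirs. The Mef2b values there come from 9 to 17 UMIs a library.

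**Figure D4:**
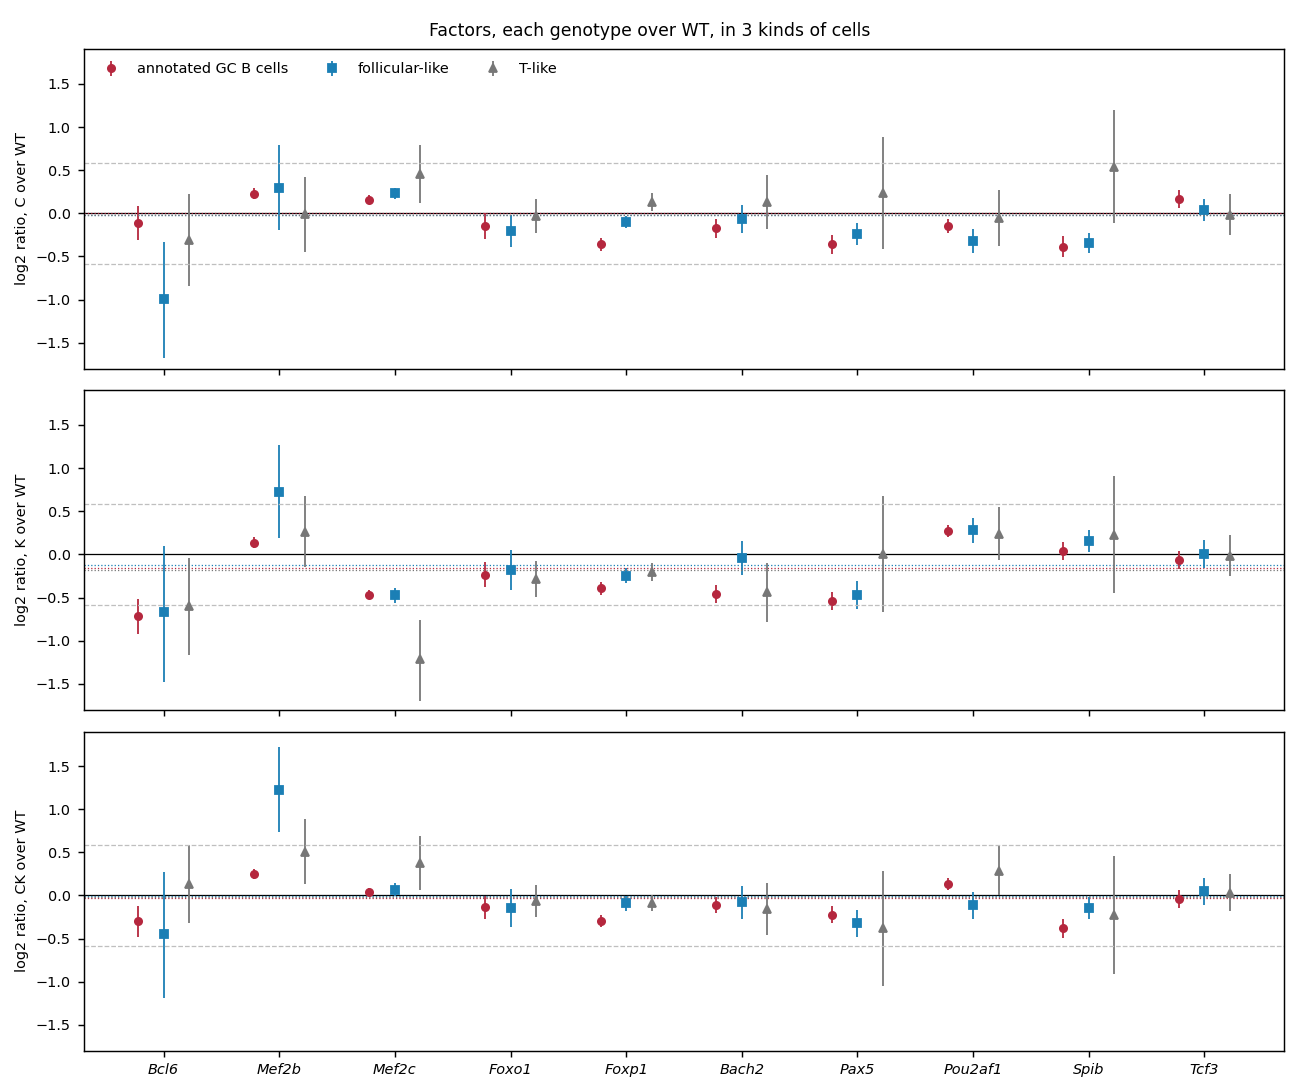
Log2 ratio of C, K and CK over WT (1 panel each, vertical axis, 0 meaning equal CPM) for each gene (horizontal axis) in annotated GC B, follicular-like and T-like cells, with exact 95% intervals for counting error, dashed lines at 1.5-fold and dotted lines at the median of all genes. Spib in annotated cells lies below 0 in C and CK, and the K points of Bcl6 and Mef2c lie below 0 in T-like cells as well, at −0.60 and −1.22.

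Cells labelled CB were not the same mix in each library. A cluster led by mitotic genes such as Cdc20 and Ccnb2 held 68.9%, 51.1%, 54.3% and 41.4% of them, and a cluster led by replication-linked histone genes held 16.9%, 36.8%, 5.27% and 49.6%. Another cluster held 33.2% of the CB of K and at most 1.19% in the other libraries. Bach2 had 130.1, 147, 138 and 158 CPM in CB of the mitotic cluster and 219.8, 310.00, 238 and 262 CPM in those of the histone cluster. Mef2c had 555, 611, 479.7 and 660.2 CPM and 1000.00, 1154, 699 and 1027 CPM in the same order. In each library both genes were higher in the histone cluster.

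Within CB of the mitotic cluster alone, a restriction chosen after the values were seen, the log2 ratio of Bach2 to WT was 0.18 in C and 0.28 in CK, and that of Mef2c was 0.14 and 0.25. The ratios of Spib there were −0.52 in C and −0.50 in CK, from 178, 124, 168 and 126 CPM, so its offset was of like size in the restricted set. In the histone cluster Spib had 132, 103, 157 and 125 CPM, where the WT value comes from 31 cells.

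**Figure D5:**
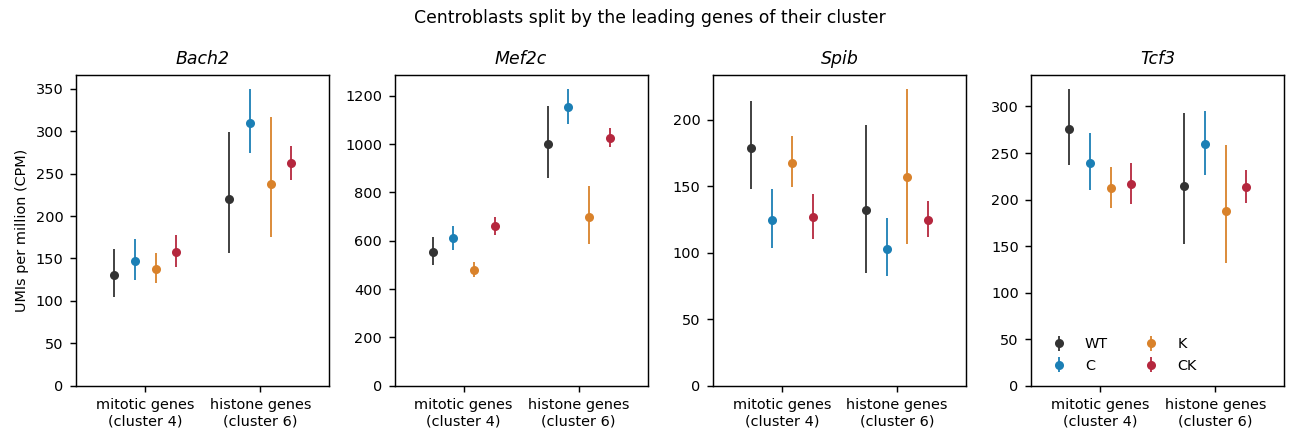
CPM (vertical axis, linear from 0) of Bach2, Mef2c, Spib and Tcf3 in CB of the mitotic (cluster 4) and histone (cluster 6) clusters, with 1 point per library and exact 95% Poisson intervals. Bach2 and Mef2c are higher in the histone cluster in each library, Spib is lower in C and CK than in WT and K in the mitotic cluster, and the Tcf3 intervals of both clusters overlap in each library.

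Genes that these factors are known to act on were read from lists chosen with earlier results of these data known. From CB to CC, 6 of 13 measured genes of 18 repressed by BCL6 were higher past the fold in all libraries and none was lower, with a median log2 ratio of 0.74. Among all genes 5.59% were higher. Batf, a factor of activated lymphocytes on this list, had log2 ratios of CC over CB from 0.79 to 2.48. Bcl6 RNA itself had log2 ratios of −0.15 to 0.22 between these subtypes. Of 10 measured BCL6 corepressor genes none passed in either direction, with a median of 0.06.

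Of the genes switched on by PAX5, 4 of 10 were higher in CC, with a median log2 ratio of 0.64, led by Fcer2a, which encodes the IgE receptor CD23, at 2.50 to 3.45. Of 5 octamer or OCA-B targets 2 were higher, at a median of 0.91, while Pou2af1 itself was lower. Cd22, an inhibitory coreceptor of the B cell receptor, had 0.77 in K and at least 1.14 in the other libraries, and the follicle homing receptor gene Cxcr5 had 0.78 to 1.34. The 5 measured FOXO1 targets split, with Cxcr4, the chemokine receptor that holds cells in the dark zone, at −1.14 to −0.98 and Klf2, a factor of quiescent lymphocytes, at 1.18 to 2.03. Of 10 DNA-binding partners 1 was higher and none lower, at a median of 0.10, and Irf8, the partner of SPIB, had 0.49 to 0.61.

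In CC of the mutants the BCL6 target list had medians of −0.15, −0.49 and −0.11 in C, K and CK, beside medians over all genes of 0.02, −0.14 and 0.04. Over all genes in CC, 5.71% were higher and 5.82% lower past the fold in C, 4.60% and 22.6% in K and 7.17% and 5.66% in CK, and the counts of each list that follow are read against these shares. Of the BCL6 targets 1 of 14 was higher and 2 lower in C, 2 of 14 higher and 4 lower in K, and 2 of 15 higher and 3 lower in CK. Batf was above WT in CC, at 0.61 (−0.01 to 1.24), 1.54 (1.01 to 2.10) and 0.92 (0.37 to 1.51) in C, K and CK, from 20.2, 30.8, 58.7 and 38.4 CPM. In K 6 of 10 corepressor genes were lower and none higher, with a median of −0.60, while CK had none in either direction and a median of 0.00. Mta3, a corepressor subunit of the NuRD complex, stood at 83.1, 58.4, 55.1 and 61.3 CPM.

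PAX5-activated genes had medians of −0.16, 0.04 and −0.18 in CC of C, K and CK. Fcer2a stood at 246, 278, 137 and 108 CPM and was past the fold in K and CK, at −0.84 (−1.05 to −0.64) and −1.19 (−1.40 to −0.97). A cluster with Fcer2a among its leading genes held 62, 93, 33 and 86 cells, 58.0% of them Scrublet doublet calls. Of its cells 65.7% were annotated, most often as CC. Its part in the Fcer2a values of CC, also in those over CB, was not tested. Irf8 had 446, 348, 478 and 368 CPM in CC. Irf8 was lowest in C and CK, as was Spib, and neither reached the fold there. Of the FOXO1 targets 3 of 6 were lower in K and 1 in CK.

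The other lists were small or mixed. Of the paralogs, 6 of 9 were measured in CC, with 2 lower in CK and 3 in K and none higher. Mef2a, the paralog of Mef2b and Mef2c, had 52.5, 56.3, 22.4 and 53.5 CPM in CC, lowest in K as Mef2c was. Among the inhibitors of E proteins, which bind TCF3 and keep it off DNA, Id3 had 214, 228, 175 and 181 CPM and Id2 17.5, 9.03, 10.8 and 14.8 CPM. DNA-binding partners had 1 of 11 lower in C, 4 in K and 1 in CK. Xbp1, the plasma cell factor with enough counts to name, had 90.2, 85.5, 109.5 and 97.5 CPM. Of 5 octamer or OCA-B targets 2 were lower in K and none in C or CK.

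Genes with the most similar pattern were sought over 16 points, 4 subtypes (CB, transitioning, CC and prememory cells) in each of 4 libraries, with log2 CPM centred within the library. The points share libraries, depth and labels, so the correlations are a description. For Bcl6, Mef2b and Bach2 the largest step was from CC to prememory cells, at median log2 ratios of −2.61, −4.39 and −1.62. The part of this step in their r values was not tested. Rgs13 was closest to Bcl6 (r = 0.992), followed by Rab35 and Akr1b10. Sypl, Arpc2 and Coro1a were closest to Mef2b (r = 0.995 for Sypl), and Basp1, Lpxn and Fas to Bach2 (r = 0.979 for Basp1). Pou2af1 ran with Glrx3, Cdc25b and Txn1 (r = 0.99 for Glrx3), Foxp1 with Srm, Cd3eap and Ppp1r14b (r = 0.989 for Srm), and Foxo1 with Acp5, Med28 and Bmp2k (r = 0.98 for Acp5). Tcf3 was nearest to Atp5o, Bzw1 and Cetn3 (r = 0.981 for Atp5o). The likeness was weaker for Pax5, with Alg1, Sp100 and Slc35b1 (r = 0.942 for Alg1), for Spib, with Mrrf, Rnf130 and Arf3 (r = 0.927 for Mrrf), and for Mef2c, with Akap8l, Cd82 and Gm15987 (r = 0.923 for Akap8l). Among the factors, Bcl6 and Mef2b had r = 0.98, and Foxp1 and Pou2af1 r = −0.91.

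Recycling cells, named for a return from the light to the dark zone, numbered 8, 10, 15 and 49. They had 662, 514, 543 and 597 CPM of Mef2b and 941, 1012, 597 and 769 CPM of Mef2c. For Bcl6 the counts were 1, 8, 3 and 7 UMIs, and for Foxo1 3, 3, 7 and 19 UMIs, too few to order the libraries. Pou2af1 had 192, 257, 235 and 253 CPM and Foxp1 209, 289, 217 and 221 CPM.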

How the data were processed

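Splenic B220+IgD- cells of 1 mouse per genotype were profiled on the Chromium Single Cell 3′ platform, with 1 library each. The deposited matrices hold raw UMI counts per gene and barcode, which the authors made with Cell Ranger (version 3.0 per the labels, 3.0.2 in the matrix headers) on mm10. Also deposited is a table of GC B cells with subtype names, which the authors transferred from earlier data in Seurat 4.0, the percent of mitochondrial UMIs, and a pseudotime score, which the authors ranked per mutant library together with WT. Its cells have less than 8% mitochondrial UMIs and, apart from 2 cells in WT, fewer than 2500 genes.

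Here, UMIs were summed per library and class and scaled to CPM. All intervals are exact 95% intervals, by Poisson for a sum, by Clopper-Pearson for a share and by the conditional binomial for a ratio. A gene entered a ratio with at least 20 UMIs over both sides. It entered a comparison across subtypes with as many in each library. A class with 0 UMIs was set at the floor of 3 counts. Cells were placed on the WT pseudotime by the number of WT cells before them. Barcodes under 8% mitochondrial UMIs were clustered (Scanpy 1.11.5, igraph 0.11.9, 2000 variable genes, 30 principal components, 15 neighbours, resolution 1) without the 10 factors, immunoglobulin and mitochondrial genes, and clusters were named from marker lists. Cells at or above 2500 genes took the commonest label of their 25 nearest cells, a step that gave 83.7% of annotated cells their own label. Scrublet called 3.32% to 5.01% of barcodes, which were kept. Shares were compared after thinning to 2000 UMIs per cell. The ratio step was tested on simulated counts. Python 3.11.15, NumPy 2.4.6, SciPy 1.17.1, pandas 2.3.3, scikit-learn 1.9.0 and Matplotlib 3.10.9 were used.

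The 10 factors, the marker lists and the gene lists were chosen with earlier results of these data known. All 10 factors are named with their values. From each list the 3 genes with the largest ratio of CK over WT in CC in either direction, among those with at least 50 UMIs over both libraries, could be named, and for each factor the 3 genes with the highest r among those with at least 500 UMIs. Mef2a was named after its values were seen. Some genes that this rule names are not reported here. Gene coordinates came from an Ensembl-based annotation of GRCm38, and promoter windows from RefSeq (GRCm38.p6). Alternatives covered cells above the gene limit, doublets, thinning, scaling, reference cells, the fold and the UMI minimum. The restriction to 1 centroblast cluster and the ratio relative to the all-gene median were added after seeing the data.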

Additional observations from a re-analysis of the deposited data

Results flagged for a closer look

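Bach2 moved in opposite directions in neighbouring subtypes of the same libraries. Its log2 ratio of C over WT was 0.52 in CB and −0.39 in transitioning cells, and that of CK over WT was 0.57 in CB and −0.48 in transitioning cells, with no counting interval that holds 0. The difference between the subtypes was not tested, since each genotype is 1 library. CB of C and CK held a larger share of the histone gene cluster, in which Bach2 was higher in each library, and within the mitotic cluster alone the ratios were 0.18 in C and 0.28 in CK. The part of this mix in the result was not tested.

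Foxp1 in C was below WT in annotated GC B cells, at a log2 ratio of −0.36, and above WT in T-like cells, at 0.13. This difference between cell classes was not tested either.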

How the results depend on the processing

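No paired analysis was possible because each genotype is 1 library. Of 1160 values of single factors under the alternatives, 956 moved by less than their interval or spread and 204 by more. These alternatives were run for C, K and CK over WT in annotated cells, CB and CC. They were also run for CC over CB, the pseudotime ends and follicular-like over GC B cells. Among those values none past 1.5-fold changed sign, and values of other classes and contrasts were not rerun. Of the smaller ones 121 took the other sign, 66 of them relative to T-like or follicular-like cells, and 10 of the 121 were then past 1.5-fold the other way. Relative to T-like cells Mef2c in K was 0.75, 1.07 and 0.74 in annotated cells, CB and CC. Bcl6 in K was −0.12, −0.34 and 0.03 in the same order. The counts of 1 for K under this setting are therefore Mef2c, higher, and not Bcl6. These Mef2c values rest on its low level in T-like cells, and the part of that level in them was not tested. Relative to follicular-like cells Mef2b was −0.97, −0.92 and −0.96 in CK and −0.59 and −0.71 in annotated cells and CC of K, and Bcl6 in C was 0.89 in annotated cells and 0.72 in CB. The counts of factors past 1.5-fold that moved by more than 1.5 times are given here as the changed count against the reported one. With cells above the gene limit added, C over WT in CB went from 1 to 0, K over WT from 1 to 0 in annotated cells and from 1 to 0 in CB. Thinning gave 2 for C in CB, 0 for K in CB and 1 for K in CC against 0. Removal of Scrublet calls gave 1 for CK in CB against 0. Median-ratio scaling gave 0 for K in annotated cells and 1 for CK in CB, and values relative to the median of all genes gave 0 and 1 for the same. Relative to T-like cells the counts were 2 for C in annotated cells, 1 for C in CC, 1 for K in CC and 2 for CK in CB. Relative to follicular-like cells they were 1, 2 and 1 for C in annotated cells, CB and CC, 0 in CB and 1 in CC for K, and 1, 2 and 1 for CK in annotated cells, CB and CC. With CB of the mitotic cluster only, C in CB had 0, and CC over CB had 4 against 2, with medians of 0.66 for Mef2b, 0.68 for Pax5 and 0.86 for Mef2c. At a log2 threshold of 0.32 in place of that of 1.5-fold the counts were 3 and 4 for C in annotated cells and CB, 5, 2 and 5 for K in annotated cells, CB and CC, 1 and 4 for CK in annotated cells and CB, 4 for CC over CB and 8 for follicular-like over GC B cells. Smaller moves were 3 for the pseudotime ends at that threshold, 6 for follicular-like over GC B cells and 3 for CC over CB when GC B-like cells with more genes joined, and 5 for follicular-like over GC B cells after thinning or with barcode markers. At 2-fold the counts were 0 for C in CB, for K in annotated cells and CB, for CC over CB and for the pseudotime ends. Leaving out each library in turn gave 2 for CC over CB, 2 for the pseudotime ends and 4 to 5 for follicular-like over GC B cells, the 5 without CK, where Pax5 also passed.

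With 1 mouse per genotype, the spread between mice is unknown, and all intervals cover counting only. Depth limits Bcl6 and Foxo1 most, with 367 and 623 UMIs over the 1227 annotated cells of WT, and limits all factors in prememory, plasma-like and recycling cells.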
